A study of Mus musculus with 30 samples.

Results

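Genes for 10 subunits of the BAF chromatin-remodeling complex, listed for the exchange of subunits between neural progenitors and neurons, were followed across whole-brain RNA-Seq of Arid1b+/- (HT) and wild-type (WT) mice. The 10 genes (Actl6a, Actl6b, Dpf1, Dpf2, Dpf3, Phf10, Ss18, Ss18l1, Bcl7a and Bcl7b) were chosen by name from 19737 genes. Bcl7a and Bcl7b are on the list as paralogs, and an exchange of one for the other is not assumed here. No rule on their values was used, but earlier results of these data were known. The study asked how heterozygous loss of Arid1b, itself a BAF subunit gene, alters the brain and whether early fluoxetine, a serotonin reuptake inhibitor, changes that. All mice were C57BL/6N males carrying either 2 intact Arid1b alleles or 1 allele with a protein-truncating change in exon 5. There was 1 library per mouse and 5 libraries in each of 6 groups. P10-WT and P10-HT pups, aged 10 days, have no treatment given in the labels. The other 4 groups were sampled at 120 days (P120). Their dams drank 0.2% saccharin water without drug (WT-Veh and HT-Veh) or with fluoxetine at 0.1 mg/ml (WT-Flx and HT-Flx) from day 3 to day 21, so that pups received the drug through milk, and plain water followed weaning. The mutation was present in all tissues, and fluoxetine intake by individual pups is not given in the sources used here.

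The BAF complex uses the energy of ATP, through Smarca4 (BRG1) or Smarca2 (BRM), to move nucleosomes. As neural progenitors leave the cell cycle, several of its positions are refilled: the actin-related protein Actl6a (BAF53a) gives way to Actl6b (BAF53b), the double-PHD-finger proteins Phf10 (BAF45a) and Dpf2 (BAF45d) give way to Dpf1 (BAF45b) and Dpf3 (BAF45c), and Ss18 gives way to Ss18l1 (CREST), a calcium-responsive coactivator. The neuronal complex is known for its part in dendrite growth and activity-dependent transcription. Bcl7a and Bcl7b are small paralogous subunits of the same complexes, and Bcl7a is known for its part in neurons.

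The loss of Actl6a in neurons is known to be driven by the microRNAs miR-9* and miR-124, which act on its 3′ UTR. The miR-9* sequence and the matching stretch of Actl6a are shown because they mark the position of this exchange in the reference. The mature miR-9* (mmu-miR-9-3p) is identical from Mir9-1, Mir9-2 and Mir9-3, on chromosomes 3, 13 and 7 of GRCm38.p6 (RefSeq), and its seed, bases 2 to 8, is in capitals.
mmu-miR-9-3p: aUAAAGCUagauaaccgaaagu
Actl6a 3′ UTR, chr3:32726625-32726647 (GRCm38, plus strand): cacctcaacgtctgtAGCTTTAg
The capitals in the second line mark the complement of the seed, AGCTTTA, searched on the sense strand only, which starts at base 38 of the 371-base 3′ UTR of transcript Actl6a-201. Among the 10 genes, 1 holds this motif in its annotated 3′ UTR. The motif occurs in 12.3% of 15689 annotated 3′ UTRs, and in 2.3% of the 2531 UTRs within 1.5 times the length of that of Actl6a. The match is a description of the reference, and small RNAs were not measured.

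Values are normalized counts, which the authors obtained from Salmon quantification and DESeq2 scaling. All 10 genes were detected in every one of the 30 libraries, the lowest value being 138.9 for Dpf3 in WT-Flx replicate 2. The targeted gene was read first. Arid1b ran from 3164 to 3309 normalized counts in P10-WT and from 2162 to 2334 in P10-HT, and from 2961 to 3392 in WT-Flx and 2164 to 2616 in HT-Flx. In the vehicle groups, HT-Veh replicate 2, at 3361, lay above all WT-Veh libraries, and WT-Veh replicate 2, at 2320, lay within the HT-Veh values. On Arid1b, both replicates 2 therefore read against the genotype in their labels. They stayed in the groups their labels give, and the counts of genes past the threshold that rest on them are also given without them. Vehicle genotypes were compared in replicates 1, 3, 4 and 5, the libraries the study lists for that comparison, although its figure legends give 5 mice in each vehicle group.

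The libraries also differed in how genes of high and low GC content were represented. The GC contrast of a library is the mean log2 deviation of the highest of 10 GC bins of genes minus that of the lowest. It ran from -0.535 to -0.347 in WT-Flx and from 0.80 to 1.568 in HT-Flx, with no overlap. It spanned -0.253 to 0.719 in WT-Veh, -0.504 to 1.092 in HT-Veh, and -0.874 to -0.43 over both P10 groups. The total of normalized counts moved with it in the fluoxetine groups, from 32484635 to 33588499 in WT-Flx against 37083545 to 41522113 in HT-Flx. The longest annotated transcripts of Phf10 and Ss18 have a GC content of 42.4% and 44.1%, those of Bcl7b and Dpf1 of 56.7% and 57.6%, and the median of tested genes is 49.6%. The tests were therefore repeated after a correction that removes, within each library, the mean deviation of genes with like GC content and transcript length.

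**Figure D1:**
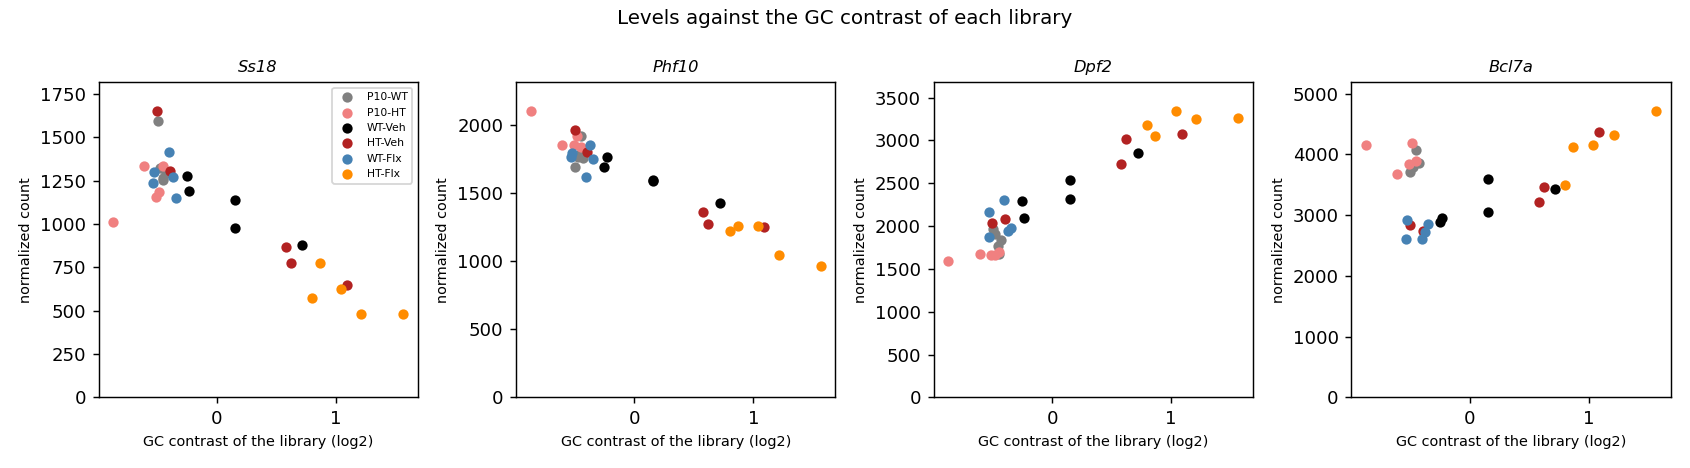
Normalized counts of Ss18, Phf10, Dpf2 and Bcl7a (vertical axes) against the GC contrast of each library (horizontal axis, log2), 1 point per library, colored by group. HT-Flx libraries lie at 0.80 to 1.568 and WT-Flx libraries at -0.535 to -0.347, and the vehicle libraries lie between and among them.

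The neuronal members of 2 of the exchanged pairs were already the more abundant at P10. To compare genes, values were divided by the length in kb of each gene's merged exons. In P10-WT the order of mean levels was Actl6b at 694.1 normalized counts per kb, Ss18l1 at 455.2, Bcl7a at 407.2, Phf10 at 363.8, Bcl7b at 328.4, Dpf1 at 297.0, Dpf2 at 282.0, Ss18 at 142.9, Actl6a at 110.7 and Dpf3 at 91.6 (n = 5). Of the 9 neighboring pairs in this order, 4 overlapped between libraries: Phf10 and Bcl7b, Bcl7b and Dpf1, Dpf1 and Dpf2, and Actl6a and Dpf3. In WT-Veh the order was Bcl7b at 592.0, Actl6b at 540.1, Ss18l1 at 412.9, Dpf2 at 371.8, Bcl7a at 335.8, Phf10 at 328.4, Dpf1 at 293.4, Ss18 at 115.9, Actl6a at 102.0 and Dpf3 at 71.3, with 7 of 9 neighboring pairs overlapping. Without WT-Veh replicate 2, Phf10 (329.4 per kb) and Bcl7a (325.1) exchanged places and the rest of this order stayed. Bcl7b thus went from the fifth position to the first, where its libraries (525 to 688.2) overlapped those of Actl6b (486.9 to 612.3). Actl6a, Ss18 and Dpf3 held the last 3 places at both ages. In HT-Flx the order ended with Actl6a at 101.5, Dpf3 at 78.6 and Ss18 at 62.4 per kb. With the length of the longest transcript in place of merged exons, Actl6b, at 955.4 per kb, still led in P10-WT, Actl6a was at 214.0, and Dpf2, at 553.2, lay above Dpf1, at 501.9. By this length Ss18l1 was at rank 6 and Bcl7b at rank 7 in P10-WT, and Bcl7b was at rank 1 in WT-Veh. Whole brain holds many cell types, and in bulk tissue fewer cells of a type and less RNA per cell cannot be told apart.

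**Figure D2:**
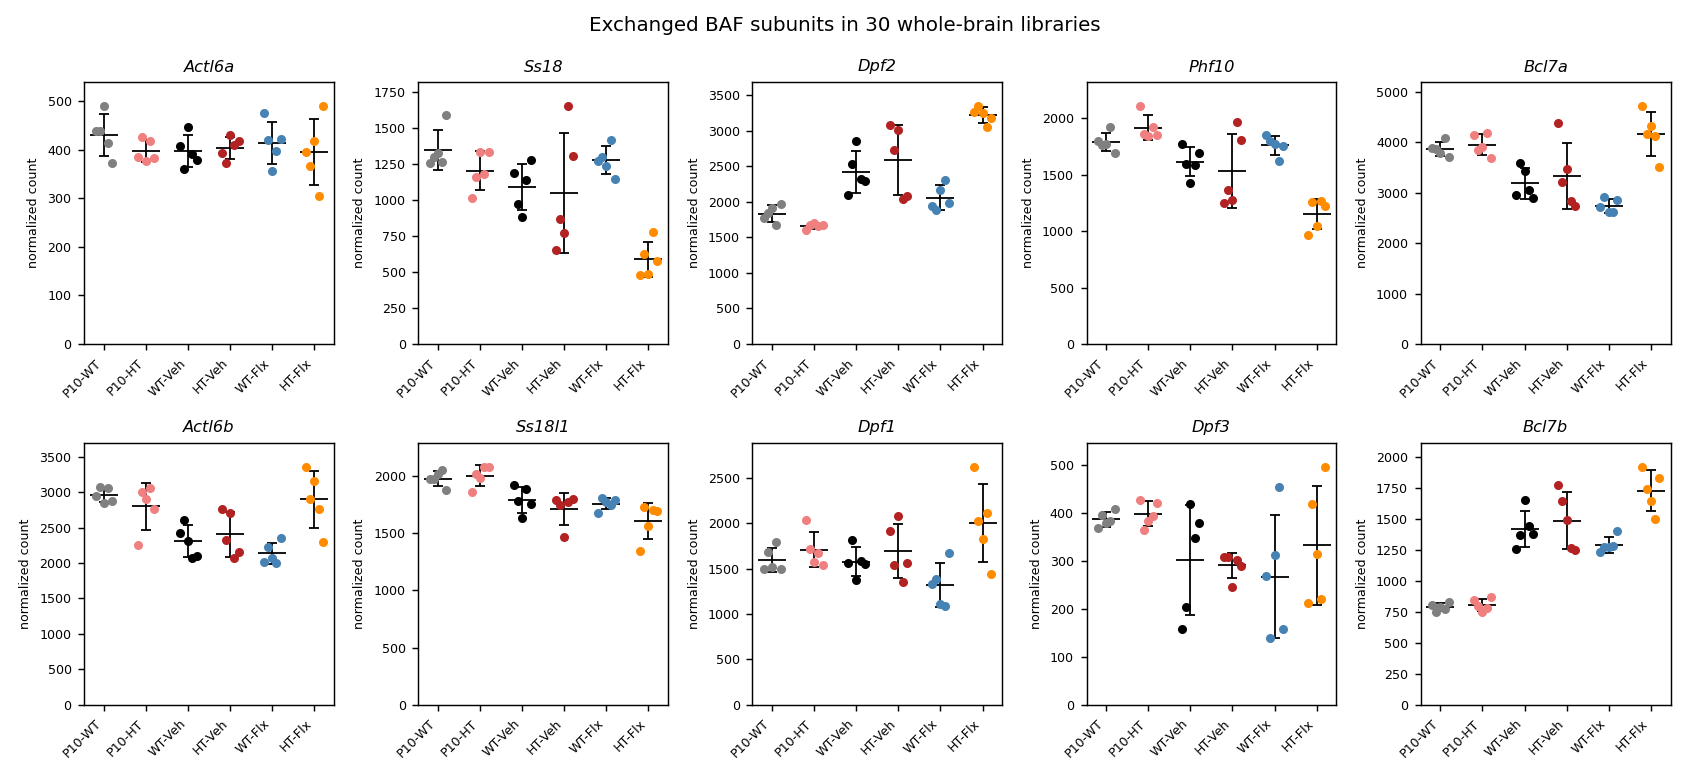
Normalized counts of the 10 genes (vertical axes, from 0) in the 6 groups, 1 point per library, with the mean (bar) and SD (error bar, n = 5). Bcl7b lies at 746 to 868 in both P10 groups and at 1232 or more in the 4 P120 groups, and Actl6a overlaps in all 6 groups.

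Between P10 and P120 in WT brain, none of the neuronal members (Actl6b, Dpf1, Dpf3 and Ss18l1) passed the test as higher, and Actl6b was lower. WT-Veh was compared with P10-WT (limma on log2 values, Benjamini-Hochberg adjustment over 17927 genes). Of the 10 genes, 2 were higher and 3 lower at P120, against 28.9% of all tested genes higher and 29.4% lower (58.3% called in all). The libraries of the groups did not overlap for 4 of the 10, against 45.6% of all tested genes, so neither share stands apart from the background. The median log2 difference was -0.15 over the 10 genes and -0.01 over all. The GC contrast separates these groups too, at -0.499 to -0.43 in P10-WT and -0.253 to 0.719 in WT-Veh. Age, the vehicle given to the P120 dams and the GC contrast therefore cannot be told apart here. No sequencing batch is named in the labels.

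Among the actin-related pair, Actl6b, the neuron-specific member, was at 2953, 3072, 2852, 3060 and 2872 normalized counts in P10-WT and at 2427, 2613, 2309, 2078 and 2097 in WT-Veh. Every P120 library lay below every P10 library, and the log2 difference was -0.37 (SE 0.071, limma adjusted p = 0.000675). Actl6a, the progenitor member, was at 438, 439, 489, 413 and 373 in P10-WT and at 406, 359, 447, 392 and 378 in WT-Veh. These values overlapped, and the difference of -0.12 did not pass the test (95% interval -0.32 to 0.08, adjusted p = 0.301). Actl6b fell while Actl6a gave no detectable change, and within a library the log2 ratio Actl6b/Actl6a averaged 2.79 ± 0.155 (SD, n = 5) in P10-WT and 2.54 ± 0.198 in WT-Veh, with overlap.

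Among the PHD-finger proteins, Dpf2, which reads histone acylation in the canonical complex, was at 1773, 1837, 1910, 1679 and 1969 in P10-WT and at 2093, 2534, 2852, 2319 and 2287 in WT-Veh. It rose by 0.39 on the log2 scale without overlap (SE 0.083, adjusted p = 0.0013). Dpf1, its neuronal counterpart, had means of 1597 ± 133.5 and 1577 ± 157.5 (SD, n = 5), and its difference of -0.02 did not pass (adjusted p = 0.858). The within-library log2 ratio Dpf1/Dpf2 went from -0.20 ± 0.193 to -0.61 ± 0.252, also without overlap. Phf10, which is shared with the PBAF complex, differed by -0.15 (limma adjusted p = 0.0789), and passed only without WT-Veh replicate 1 among the fits without 1 library (-0.18, adjusted p = 0.0342). Dpf3 was at 368 to 409 in P10-WT and at 157, 203, 419, 347 and 379 in WT-Veh, where replicates 1 and 2 were low. Its difference of -0.46 did not pass (SE 0.229, limma adjusted p = 0.103). It stood at -0.25 without WT-Veh replicate 1, and at -0.60 without WT-Veh replicate 3, where it passed (adjusted p = 0.0298).

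In the Ss18 pair, Ss18 was at 1254, 1296, 1325, 1265 and 1591 in P10-WT and at 1187, 975, 881, 1138 and 1277 in WT-Veh. WT-Veh replicate 5 overlapped the P10 values, and Ss18 fell by 0.31 on the log2 scale (SE 0.106, adjusted p = 0.0229). This call ended without WT-Veh replicate 2, one of the libraries against their labels (-0.27, adjusted p = 0.0559), and without P10-WT replicate 5 (-0.25, adjusted p = 0.063). Ss18l1, with means of 1977 ± 64.6 and 1793 ± 113.1 (SD, n = 5), differed by -0.14 (limma adjusted p = 0.0633). Among the fits without 1 library it passed only without WT-Veh replicate 1 (-0.17, adjusted p = 0.0359).

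The Bcl7 pair moved in opposite directions. Bcl7b was at 803, 746, 792, 772 and 834 in P10-WT and at 1262, 1373, 1654, 1444 and 1382 in WT-Veh, a 1.80-fold rise with a log2 difference of 0.84 (SE 0.077, adjusted p = 1.11e-06). Bcl7a was at 3882, 3863, 3787, 4077 and 3714 and then at 2958, 3595, 3432, 3059 and 2892, and fell by 0.28 on the log2 scale (SE 0.07, adjusted p = 0.00373). For both genes the ages did not overlap. The within-library log2 ratio Bcl7a/Bcl7b was 2.154 to 2.399 in P10-WT and 1.052 to 1.389 in WT-Veh.

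Without WT-Veh replicate 2, the log2 differences of the other 4 genes past the threshold were -0.41 for Actl6b, 0.37 for Dpf2, -0.33 for Bcl7a and 0.86 for Bcl7b, each still past it. After the GC and length correction, 6 genes passed in the same comparison, 4 of them as before (Actl6b at -0.40, Dpf2 at 0.39, Bcl7a at -0.26 and Bcl7b at 0.61, log2). Ss18 went to -0.04 (adjusted p = 0.708), Dpf1 fell by 0.23 on this corrected scale (adjusted p = 0.0365), and Phf10 turned from -0.15 to 0.22 (adjusted p = 0.00275). The direction of Phf10 and of Ss18l1 (-0.14 before and 0.08 after) thus depended on this correction, while those of Actl6b, Dpf2, Bcl7a and Bcl7b did not.

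In HT brain the same comparison, HT-Veh against P10-HT, called 2 of the 10 genes higher and 2 lower, against 25.8% and 25.3% of 17989 tested genes (51.1% called in all). Dpf2 was at 1597, 1667, 1702, 1664 and 1678 in P10-HT and at 3074, 2720, 3012, 2036 and 2086 in HT-Veh, and rose by 0.62 on the log2 scale (SE 0.13, limma adjusted p = 0.00173). Bcl7b was at 844, 798, 749, 785 and 868 and then at 1779, 1647, 1493, 1268 and 1250, and rose by 0.87 (SE 0.119, adjusted p = 6.89e-05). In both genes HT-Veh replicates 4 and 5 were the lowest of their group and still above every P10 library.

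Dpf3, at 364 to 427 in P10-HT and 245 to 308 in HT-Veh, fell by 0.46 on the log2 scale (SE 0.111, limma adjusted p = 0.0041). Phf10 fell by 0.35 (SE 0.137, adjusted p = 0.0493), a call that ended in 8 of the 10 fits without 1 library, that of HT-Veh replicate 2 among them (-0.31, adjusted p = 0.108). Only its fits without HT-Veh replicate 4 or 5 kept the call, and after the GC and length correction its difference was 0.15 (adjusted p = 0.0864). Actl6b differed by -0.22 (limma adjusted p = 0.15), and by -0.31 after the correction (adjusted p = 0.00817). In that corrected fit 6 of the 10 genes passed, beside 56.2% of all genes: Dpf2 and Bcl7b higher, and Actl6b, Dpf1, Dpf3 and Bcl7a lower. Bcl7b went from 0.87 to 0.46 with this correction (adjusted p = 0.00151), and Dpf2 from 0.62 to 0.57. Without HT-Veh replicate 2, 3 of the 10 genes passed in this comparison, beside 45.6% of all genes (Dpf2 at 0.59, Bcl7b at 0.83 and Dpf3 at -0.48). Without WT-Veh replicate 2, 4 of the 10 passed in the WT comparison, beside 56.1% of all genes. The groups did not overlap for 4 of the 10 genes (Dpf2 and Bcl7b higher, Dpf3 and Ss18l1 lower), against 40.2% of all tested genes.

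Whether age acted differently in HT and WT was tested as an interaction over 20 libraries. None of 17978 genes passed (0% called, 612 or 3.4% at an unadjusted p under 0.05, limma), and none of the 10 genes passed at either level, nor by adjusted p without the pair of libraries against their labels. The 95% intervals of the 10 differences lay within -0.55 and 0.57 on the log2 scale, the widest being those of Dpf3 (-0.55 to 0.56) and Ss18 (-0.51 to 0.57), and the data do not tell 0 from other values within these intervals.

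The Arid1b+/- genotype alone called none of the 10 genes at either age. At P10, 4 of 17896 genes passed (0.0224%), Arid1b among them at a log2 difference of -0.55 (SE 0.036, limma adjusted p = 1.52e-05), and 2249 genes (12.6%) had an unadjusted p under 0.05, 1 of the 10 genes with them. That gene was Dpf2, at 1773, 1837, 1910, 1679 and 1969 in P10-WT and 1597, 1667, 1702, 1664 and 1678 in P10-HT, a difference of -0.14 (95% interval -0.24 to -0.04, adjusted p = 0.317). The groups overlapped for all 10 genes, against 3.12% of tested genes that did not overlap. The intervals of the 10 differences lay within -0.34 and 0.26, and none of the 10 passed after the correction, with Dpf2 at -0.09. In the plot of values by group the P10 groups lie at like heights for each gene.

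At P120, HT-Veh and WT-Veh, replicates 1, 3, 4 and 5 of each, gave no gene past the threshold of 17784 (0% called, 229 or 1.29% at an unadjusted p under 0.05, limma), and none of the 10 genes at either level. Arid1b itself did not pass, although its libraries did not overlap (3171, 3036, 3224 and 3229 in WT-Veh, 2342, 1973, 2480 and 2227 in HT-Veh). The lack of calls in this comparison therefore does not show that a gene was unchanged. The groups overlapped for all 10 genes, against 1.04% of tested genes that did not overlap. With replicate 2 of each group added back, 0 of the 10 genes passed as well. The intervals of the 10 differences lay within -0.73 and 0.53, wider than at P10, and none of the 10 passed after the correction. For Ss18 the spread was wide in HT-Veh, with values of 650, 866, 773, 1651 and 1308, and the GC contrasts of the same libraries, in the same order, were 1.092, 0.58, 0.623, -0.504 and -0.396. The 3 libraries of positive contrast were those low in Ss18 and Phf10 (1252, 1363 and 1275 normalized counts of Phf10, against 1965 and 1801), and high in Dpf2 and Bcl7a. At P10 the GC contrast of all 10 libraries was negative. P10-HT replicate 1, of the lowest contrast (-0.874), had the lowest Ss18 (1014) and the highest Phf10 (2105) of these libraries. The part of the GC contrast in these values was not tested.

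Fluoxetine was compared with vehicle within each genotype. In HT mice no gene of 17676 passed (0% called, with 4082 or 23.1% at an unadjusted p under 0.05, limma), and none of the 10 genes passed, 4 having an unadjusted p under 0.05. Of these, Ss18 had the largest difference, from 650 to 1651 in HT-Veh to 482, 624, 483, 777 and 574 in HT-Flx (log2 difference -0.77, SE 0.24, 95% interval -1.29 to -0.25, adjusted p = 0.215). Phf10 was at -0.39, Dpf2 at 0.34 and Bcl7a at 0.34, each with an adjusted p of 0.215. With replicate number as a block, an alternative fit, 1355 genes (7.67%) passed in HT mice. Ss18 was the only member with them (limma adjusted p = 0.033). In WT mice no gene of 17865 passed (0% called, 4504 or 25.2% unadjusted), and again 4 of the 10 genes had an unadjusted p under 0.05: Dpf1 at -0.27, Dpf2 at -0.23 and Bcl7a at -0.21, with Ss18 at 0.23. After the GC and length correction none of the 10 genes passed in either genotype. The values in HT then were -0.50 for Ss18, -0.01 for Phf10, 0.27 for Dpf2 and 0.24 for Bcl7a, and those in WT were -0.04 for Dpf1, -0.20 for Dpf2, -0.10 for Bcl7a and 0.08 for Ss18. The groups overlapped for all 10 genes in both genotypes, against 1.62% of tested genes in HT and 6.41% in WT that did not. Without the pair of libraries against their labels, 0 of the 10 genes passed in either genotype.

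HT-Flx and WT-Flx differed in many genes, the exchanged subunits included. Of 17799 genes, 63.7% passed, 33.1% higher and 30.5% lower in HT-Flx, and 5 of the 10 genes were higher and 2 lower (limma, Benjamini-Hochberg adjustment over all genes). The median log2 difference was 0.39 over the 10 genes and 0.02 over all. Groups did not overlap for 5 of the 10 (48.5% of all tested genes). Both shares are to be read against these backgrounds, and against the GC contrast, which separates the same groups.

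Ss18, the progenitor member of its pair, was at 1270, 1301, 1239, 1417 and 1147 in WT-Flx and at 482, 624, 483, 777 and 574 in HT-Flx. No HT-Flx library reached the WT-Flx values, and Ss18 was lower by a log2 difference of -1.14 (SE 0.129, limma adjusted p = 3.67e-05). Phf10 was at 1852, 1799, 1770, 1622 and 1753 in WT-Flx and at 969, 1259, 1048, 1262 and 1224 in HT-Flx, also without overlap (-0.62, SE 0.093, adjusted p = 0.000126). Its ratio to Dpf1, the neuronal PHD-finger protein, followed: log2 Dpf1/Phf10 was -0.671 to -0.066 in WT-Flx and 0.234 to 1.436 in HT-Flx. Dpf1 and Phf10 differ widely in GC content, at 57.6% and 42.4%. With the GC and length correction their log2 differences between these groups were 0.00 and 0.06.

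Dpf2 was at 1945, 1878, 2170, 2305 and 1980 in WT-Flx and at 3259, 3343, 3252, 3052 and 3182 in HT-Flx, a 1.57-fold difference (log2 0.65, SE 0.077, limma adjusted p = 3.91e-05). Bcl7a was at 2715, 2918, 2610, 2614 and 2848 and at 4713, 4156, 4315, 4124 and 3497, with a log2 difference of 0.60 (SE 0.086, adjusted p = 9.62e-05). Both were higher without overlap, as was Bcl7b (0.42, SE 0.084, adjusted p = 0.000939). Actl6b (0.43, SE 0.103, adjusted p = 0.00286) and Dpf1 (0.59, SE 0.158, adjusted p = 0.0055) were higher with overlapping groups, HT-Flx replicate 5 being the lowest HT-Flx library for both. Actl6a at -0.08, Ss18l1 at -0.14 and Dpf3 at 0.37 did not pass.

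After the GC and length correction, 37% of all genes and 3 of the 10 passed in this comparison. Ss18 stood at -0.65 (SE 0.089, limma adjusted p = 0.00029), Dpf2 at 0.52 (SE 0.068, adjusted p = 0.000214) and Bcl7a at 0.43 (SE 0.079, adjusted p = 0.00144). The other 4 lost their calls: Actl6b at 0.14 (adjusted p = 0.221), Dpf1 at 0.00 (0.989), Phf10 at 0.06 (0.465) and Bcl7b at -0.09 (0.375), the last 2 with a change of sign. The GC contrast did not overlap between the genotypes in these 10 libraries, so genotype and GC contrast cannot be told apart here.

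**Figure D3:**
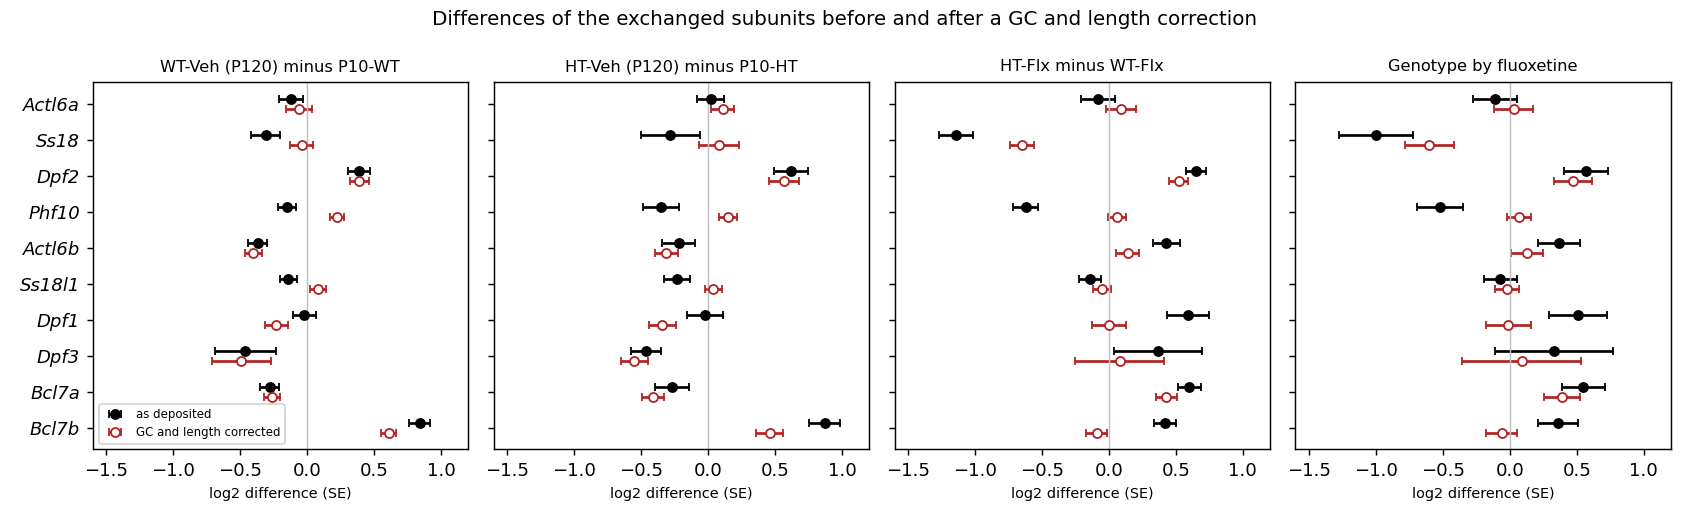
Log2 differences (horizontal axes, point with SE) of the 10 genes in 4 comparisons, as deposited (filled) and after the GC and length correction (open). Between HT-Flx and WT-Flx, Phf10 moves from -0.62 to 0.06 and Dpf1 from 0.59 to 0.00, while Dpf2 moves from 0.65 to 0.52.

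The difference between the fluoxetine effects of the genotypes, (HT-Flx minus HT-Veh) minus (WT-Flx minus WT-Veh), was tested over the 20 P120 libraries, and shares its groups with the 3 comparisons above. Of 17796 genes 27.3% passed, 15.8% in the positive and 11.5% in the negative direction. Of the 10 genes, 2 passed in each direction: Dpf2 at 0.57 (SE 0.164) and Bcl7a at 0.55 (SE 0.161), and Ss18 at -1.0 (SE 0.278) and Phf10 at -0.52 (SE 0.171), with limma adjusted p of 0.0347, 0.0347, 0.0347 and 0.0367. None of the 4 passed after the GC and length correction (0% of all genes called). None passed without the pair of libraries against their labels either (0% of all genes called), where their limma adjusted p ran from 0.0576 to 0.0597. Leaving out 1 library of 20 left 0 of the 10 genes past the threshold in 8 cases, those of HT-Flx replicate 1, HT-Veh replicates 4 and 5, WT-Flx replicates 2 and 3, and WT-Veh replicates 2, 3 and 4. In each of these 8 fits 0% of all genes passed. Without HT-Veh replicate 1, 7 of the 10 passed, beside 43% of all genes.

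Within-library ratios do not depend on the scaling of the library, but a GC contrast between libraries can enter them where paralogs differ in GC content, as Ss18 (44.1%) and Ss18l1 (49.4%) do. The log2 ratio Ss18l1/Ss18 was 0.303 to 0.64 in WT-Flx and 1.133 to 1.69 in HT-Flx, without overlap, and 0.105 to 1.459 in HT-Veh alone. The ratio Actl6b/Actl6a, whose members are closer in GC content (51.6% and 49.1%), averaged 2.37 ± 0.176 in WT-Flx and 2.88 ± 0.376 in HT-Flx (SD, n = 5), with overlap. Their longest transcripts differ in length, at 3100 and 2010 bases. With the GC and length correction, the log2 difference between HT-Flx and WT-Flx went from 0.43 to 0.14 for Actl6b and from -0.08 to 0.09 for Actl6a. The ratio Dpf1/Dpf2 averaged -0.65 ± 0.356 and -0.71 ± 0.313 in these groups. At P10 the genotypes overlapped in each of the 7 ratios computed, as they did between HT-Veh and WT-Veh.

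**Figure D4:**
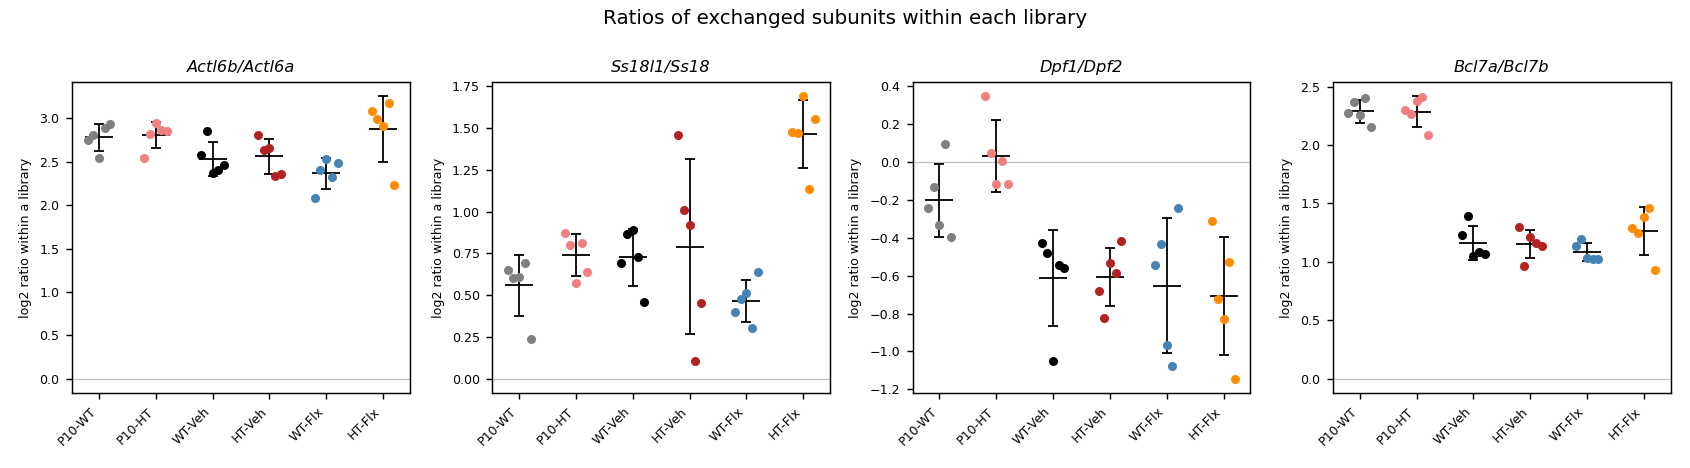
Log2 ratios of paralogs within each library (vertical axes) for Actl6b/Actl6a, Ss18l1/Ss18, Dpf1/Dpf2 and Bcl7a/Bcl7b in the 6 groups, 1 point per library, with mean (bar) and SD (error bar, n = 5). Bcl7a/Bcl7b is at least 2.08 at P10 and at most 1.46 at P120, and the mean of Ss18l1/Ss18 is highest in HT-Flx.

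The genes around the exchange were read from lists of the same pathway. Of 13 core and shared BAF subunits, 2 rose and 4 fell from P10-WT to WT-Veh: Smarcc2 (BAF170, the scaffold that is associated with the differentiated brain) by 0.35 and Smarca2 (BRM) by 0.21, against Smarce1 (BAF57) at -0.68 and Actb (beta-actin) at -0.63 (limma adjusted p = 0.000352, 0.0154, 5.46e-07 and 9.43e-06). Smarcc1 (BAF155) was at -0.36 (adjusted p = 0.000196). Of 6 PBAF and ncBAF subunits, 1 rose and 3 fell, with Bicral at 0.51 and Pbrm1, the bromodomain scaffold of PBAF, at -0.75 (adjusted p = 8.89e-05 and 0.000238), followed by Arid2 at -0.37 (adjusted p = 0.000886). These shares are to be set against 28.9% higher and 29.4% lower of all genes. Of the 2 BAF-associated transcription factors, Bcl11a (CTIP1) fell, at -0.54, and Bcl11b (CTIP2) did not pass, at -0.10. Without WT-Veh replicate 2 these 3 lists had the same counts, beside 27.9% of all genes higher and 28.2% lower. After the GC and length correction the core list had 1 higher and 7 lower, against 31.8% and 27.7% of all genes: Smarcc2 stood at 0.12 and no longer passed (adjusted p = 0.0531). Pbrm1 stood at -0.32, Arid2 at -0.20 and Bcl11a at -0.30, still past the threshold.

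Of 8 regulators of the exchange, none rose and 5 fell from P10-WT to WT-Veh, beside the same 28.9% and 29.4% of all genes. They include C130071C03Rik, the host transcript of Mir9-2, at -0.83 and Ptbp2, a neuronal splicing repressor, at -0.68 (limma adjusted p = 9.39e-05 and 7.55e-05). After the correction these 2 stood at -0.51 and -0.30. In that fit 4 of the 8 were lower, beside 31.8% of all genes higher and 27.7% lower. Rest, the repressor of neuronal genes that is known to hold the miR-9* and miR-124 genes silent in progenitors, was at 259.9 normalized counts in P10-WT and 236.7 in WT-Veh (mean, n = 5), a difference of -0.15 that did not pass (adjusted p = 0.286). Between HT-Flx and WT-Flx, 1 of the 8 was higher, Ptbp1 at 0.66, and 4 were lower, Ptbp2 at -1.14 and C130071C03Rik at -0.99 first among them, against 33.1% higher and 30.5% lower of all genes in groups whose GC contrast did not overlap. After the correction 1 was higher and 2 lower, beside 37% of all genes called (3714 of 17799 higher). C130071C03Rik then stood at -0.28 (limma adjusted p = 0.028), and Ptbp1 at 0.19 and Ptbp2 at -0.26 did not pass (adjusted p = 0.0648 and 0.0546). These host transcripts are not the mature microRNAs.

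Markers of progenitors and of young neurons fell with age, beside 28.9% of all genes higher and 29.4% lower. Of 12 progenitor and proliferation genes, 8 fell and none rose from P10-WT to WT-Veh, led by Mki67 at -4.83 and Top2a at -4.77 (limma adjusted p = 7.17e-09 and 2.05e-08), and all 8 immature neuron markers fell, led by Igfbpl1 at -4.16 and Dcx at -3.66 (adjusted p = 3.6e-08 and 1.72e-07). Actl6a, at -0.12, did not pass. Of 12 mature neuron markers, 6 rose and 1 fell, and their summed level went from 219199 to 247154 normalized counts in P10-WT to 291503 to 346035 in WT-Veh, while Actl6b fell. That sum is weighted to abundant genes. The mean of Camk2a went from 33853.4 to 75002.2, and that of Map2 from 36843.5 to 22997.6. Of 8 oligodendrocyte markers 4 rose and none fell, and of 4 choroid plexus markers all rose. All 4 markers of oligodendrocyte precursors fell, as did 3 of 4 endothelial and 2 of 5 erythroid markers, with 1 endothelial marker higher, and astrocytes (7 genes) and microglia (6 genes) had 2 and 3 higher and 1 lower each. Without WT-Veh replicate 2, the progenitor, immature neuron, precursor, endothelial and choroid plexus counts stayed, mature neurons had 5 higher and 2 lower, oligodendrocytes 3 higher, astrocytes 1 higher and 1 lower, and erythroid markers 1 lower. After the GC and length correction, progenitors had 9 lower, mature neurons 5 higher and 3 lower, and astrocytes 3 higher and 2 lower. Of all genes, 31.8% were then higher and 27.7% lower, and 27.9% and 28.2% without WT-Veh replicate 2. No marker in any list was at 0 throughout a group, and the part of cell composition in the age differences was not tested.

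Between HT-Flx and WT-Flx, the summed markers also differed: astrocytes (7 genes, 2 higher and 4 lower) were at 66968 to 101503 in HT-Flx and 107110 to 121279 in WT-Flx, oligodendrocytes (8 genes, 4 higher and 2 lower) at 262182 to 289608 and 188883 to 249338, and immature neurons (8 genes, 3 higher and 2 lower) at 42485 to 56949 and 30599 to 34209. Mature neuron markers (12 genes, 4 higher and 4 lower) overlapped, at 280929 to 403065 and 292969 to 341882. These counts stand beside 33.1% of all genes higher and 30.5% lower. After the correction 37% of all genes passed (6582 of 17799, 3714 of them higher). Astrocytes then had 1 higher and none lower, oligodendrocytes 3 and 2, immature neurons 1 and 2, and mature neurons 2 and 4. The part of these markers in the differences of the BAF subunits was not tested.

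Across the 20 P120 libraries, the gene most like each member was found among 14523 genes by Pearson correlation, as a description in which the points share library, depth and GC contrast. For Actl6b these were Strn4 (0.98), Dmtn (0.97) and Rab15 (0.97). The nearest to Dpf2 was Sec61a1 (0.99), to Ss18 Lims1 (0.98), to Phf10 Arl14ep (0.98), to Bcl7a Pacs1 (0.98) and to Bcl7b Papss1 (0.98), and Actl6a had the least alike nearest gene, Lsg1 (0.81). Among the members themselves, Phf10 and Ss18 had a correlation of 0.96 and Actl6b and Bcl7a of 0.93, while Dpf2 and Phf10 had one of -0.94. Over the 18 libraries without those against their labels, these 3 correlations were 0.97, 0.92 and -0.94, and Strn4, Sec61a1, Papss1 and Lsg1 were still the nearest genes of their members, while Lims1 was at rank 2 for Ss18, Arl14ep and Pacs1 at rank 4 for Phf10 and Bcl7a, and Rab15 at rank 5 for Actl6b.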

How the data were processed

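Whole-brain RNA was measured in 30 libraries, 1 per mouse, in 6 groups of 5. The authors purified poly-A RNA, prepared TruSeq libraries, quantified reads with Salmon 1.1.0 (with its GC bias correction) on GRCm38 transcripts, brought them to gene level with tximport and scaled them with DESeq2 1.30.1. The deposited values are a normalized signal, estimated reads divided by size factors, so they are not whole reads, sequencing depth is unknown, and counting intervals are left out. Symbols were found for 99.9% of 19737 identifiers, and positions, exon lengths and GC content come from the GRCm38 annotation.

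Genes with a mean of at least 10 over the libraries compared were tested on log2(value + 1), which understates changes of low genes, with limma 3.58.1 in R 4.3.3 (linear model per gene, intensity trend), with Benjamini-Hochberg adjustment at 0.05 over all tested genes. The GC and length correction subtracts each library's mean deviation within 10 by 10 bins of genes. Intervals use the moderated degrees of freedom. The tests were tested on simulated data. Replicate numbers were not taken to pair the libraries: the correlation of same-numbered deviations was over 0.1 in at most 3 of 5 pairs of any comparison. Between HT-Flx and HT-Veh it averaged 0.179 for same-numbered and -0.044 for other pairs. A block by replicate number was therefore run as an alternative only, and whether same-numbered libraries were handled together was not tested.

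Named genes were all 10 members, Arid1b, the 2 genes of largest fold change in each direction among those of each pathway list past the threshold, and the most similar gene of each member (3 for Actl6b). Smarcc1, Bcl11b and Rest were chosen after their values were seen. The members and lists were chosen with earlier results of these data known. Alternatives were pseudocounts of 5 and 0.1, no filter, a minimum mean of 100, rescaling, the replicate block, no trend, the correction alone and with the block, all P120 groups together, and leaving out libraries. For the lists, the similar genes and the order per kb, the correction and leaving out libraries were chosen after seeing the data. Comparisons share groups, and no other tool was run.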

Additional observations from a re-analysis of the deposited data

Results flagged for a closer look

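The values of the 10 genes and 7 ratios in 6 groups of 5 libraries were looked at for a library far from the others, in 102 sets of which chance marks about 1 in 20. There were 5 such values. Ss18 in P10-WT replicate 5 was the highest of its group, at 1591.0 normalized counts, and the log2 ratio Ss18l1/Ss18 in the same library was the lowest, at 0.239. The log2 ratio Dpf1/Dpf2 in WT-Veh replicate 3 was -1.053, the lowest of its group. Ss18l1 in HT-Veh replicate 3 was at 1466.0 normalized counts, and the log2 ratio Actl6b/Actl6a in HT-Flx replicate 5 was at 2.23, each the lowest of its group.

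In the interaction test, 4 genes passed for a difference between the fluoxetine effects of the genotypes: Dpf2 (log2 0.57), Bcl7a (0.55), Phf10 (-0.52) and Ss18 (-1.0). None of them passed after the GC and length correction, or without the pair of libraries against their labels (limma adjusted p from 0.0576 to 0.0597), and none of the 10 genes passed in 8 of 20 fits that left out 1 library. In each of these fits 0% of all genes passed.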

How the results depend on the processing

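The count of the 10 genes past the threshold stayed within 1.5 times its value for both age comparisons, age by genotype, the genotypes at P10 and with vehicle, and WT fluoxetine, under the alternatives run. Leaving out single libraries gave 4 to 7 genes for WT age, 3 to 5 for HT age, 7 to 7 for HT-Flx against WT-Flx and 0 to 7 for genotype by fluoxetine, and 0 to 0 for the others. Over all genes these fits called 9594 to 10707 for WT age, 8128 to 10177 for HT age and 10500 to 11521 for HT-Flx against WT-Flx. With the replicate block, HT-Flx against HT-Veh gave 1 gene, Ss18 (adjusted p = 0.033), and the block moved no other count by over 1.5 times. The block lost the call of Phf10 in HT age (adjusted p = 0.0781). Replicate numbers were not taken to pair the libraries in the main fits. The GC and length correction, alone or with the replicate block, gave 3 genes for HT-Flx against WT-Flx and 0 for genotype by fluoxetine, and the latter gave 0 without the libraries against their labels. The correction, alone or with the block, reversed Phf10 to 0.22 in WT age, 0.15 in HT age, 0.065 in HT-Flx against WT-Flx and 0.067 in genotype by fluoxetine, and Bcl7b to -0.094 in HT-Flx against WT-Flx. Over all genes, the count went from 11330 to 6582 with the correction for HT-Flx against WT-Flx, from 4852 to 0 for genotype by fluoxetine (0 to 7667 without single libraries), from 0 to 1355 with the block for HT-Flx against HT-Veh, from 0 to 1400 without WT-Veh replicate 1 and to 624 without WT-Veh replicate 5 for WT-Flx against WT-Veh, and from 4 to 9 with block and correction at P10. The corrected fit assumes that true differences do not follow GC content or length, which was not tested. Depth limits could not be read from normalized values, and precision rests on the spread among 4 or 5 mice. Small differences between HT and WT were not detectable, as the intervals at P120 show.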
